A study of Mus musculus with 384 samples.

Results

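The genes described here encode the nuclear-encoded subunits of oxidative phosphorylation, and they were chosen by symbol alone. Every gene whose symbol starts with Nduf followed by a, b, c, s or v and a digit was taken, as were Sdha to Sdhd and the symbols starting with Uqcr, Cox4 to Cox8 or Atp5, without pseudogene symbols. This gave 84 of the 23420 genes in the table: 37 of complex I, 4 of complex II, 8 of complex III, 18 of complex IV and 17 of complex V. The complex was assigned from the symbol. Ndufa4 is now placed in complex IV, Cox7a2l acts in joining respiratory complexes, and Atp5s and Atp5sl carry older symbols of factors outside the ATP synthase itself. These 4 were kept where their symbols put them.

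The cells were single T cells of B16F10 tumours, a mouse melanoma line that can be transplanted, in C57BL/6 mice that were wild type or carried a knockout of Il27ra, a receptor subunit for the cytokine IL-27. They were read by Smart-seq2, which covers full-length transcripts and has no molecular identifiers. CD8 and CD4 cells of a wild-type source (WT4) and a source labelled knockout (KO4) filled 4 plates, each with 94 single cells, 1 population library and 1 well without a cell. Mouse age, the number of mice per source and the Il27ra allele are not stated in the labels, and genotype, animal and plate cannot be told apart.

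Oxidative phosphorylation takes electrons from NADH through complex I and from succinate through complex II, passes them by complex III and cytochrome c to complex IV, where oxygen is reduced, and uses the resulting proton gradient to make ATP at complex V. A small set of core subunits is encoded in mitochondrial DNA and the remaining subunits in the nucleus, so that each complex except complex II is built from both genomes. Activated T cells are known to combine this pathway with glycolysis, and tumour-infiltrating CD8 T cells are known for altered mitochondria.

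A gene was called detected in a library at 1 FPKM or more (fragments per kilobase of transcript, scaled to library size), and a cell was used if it had 1000 or more such genes. Used were 72 wild-type CD8 cells, 77 CD8 cells labelled knockout, 74 wild-type CD4 cells and 78 CD4 cells labelled knockout. Median detected genes per kept cell were 2530.5 on the wild-type CD8 plate and 2047 to 2243 on the others, so the wild-type CD8 plate stood apart in depth. It also held 24 cells with at least 3 of 9 cell-cycle genes detected, against 8, 4 and 6 on the others. The titles' cell types were matched by Cd4, detected in at most 1.30% of the cells of a CD8 plate and in 89.2% and 91.03% of CD4 cells, and by Cd8a, detected in 84.7% and 81.8% of CD8 cells and at most 2.70% of the cells of a CD4 plate. Cd8b1, also a CD8 marker, separated the plates less cleanly. Its shares, wild type first, were 88.9% and 84.4% on CD8 plates against 25.7% and 23.1% on CD4 plates. Cd8a and Cd8b1 together summed to at most 709.3 and 4.79 FPKM per CD4 cell. The CD4 population libraries held 5.34 and 122.2 FPKM of Cd8b1. Cd40lg, also a CD4 marker, reached 39.2% and 34.6% on CD4 plates against 5.56% and 7.79% on CD8 plates. Il27ra did not separate the labels. On the CD8 plates its share of cells was 51.4% in wild type (exact 95% interval 39.3 to 63.4) and 57.1% under the knockout label (45.4 to 68.4). On the CD4 plates these shares were 36.5% (25.6 to 48.5) and 47.4% (36.01 to 59.1). Its population level was 155.4 and 92.9 FPKM for CD8 and 244.6 and 133.4 FPKM for CD4. A sum over the whole gene does not show which exons were read, and the plates are therefore called by their labels. Of 9 myeloid markers at least 1 was detected in 21.6% to 31.9% of cells per plate. Their mean sum was 325.8 and 125.8 FPKM in CD8 and 2346 and 602 FPKM in CD4, wild type first. The median sum was 0 FPKM on every plate, and the highest single cells held 8158, 1911, 127298 and 39620 FPKM in the same order. The 6 melanoma markers had mean sums of 449, 27.2, 62.1 and 18.2 FPKM in that order, higher on the wild-type plate of each cell type, with medians of only 8.07 to 10.3 FPKM. Tyr, a pigment enzyme, was listed in 97.4% to 100% of cells, and the B cell marker Ms4a1 in none. The part of such RNA in the results was not tested.

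The 84 genes made up a visible part of the summed FPKM of most cells, though the lowest value was 0% on the wild-type CD8 plate. Their summed FPKM took a median of 2.07% of the total in wild-type CD8 cells (SD 0.752, n = 72), 1.74% in CD8 cells labelled knockout (SD 0.543, n = 77), 1.71% in wild-type CD4 cells (SD 0.509, n = 74) and 1.58% in CD4 cells labelled knockout (SD 0.522, n = 78). In the population libraries, where fewer cells of a type and less RNA per cell cannot be told apart, the share was 3.10%, 2.43%, 1.99% and 2.02% in the same order. Both kinds of library put the wild-type CD8 plate first. The wells without a cell held 0 FPKM of the 84 genes.

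**Figure D1:**
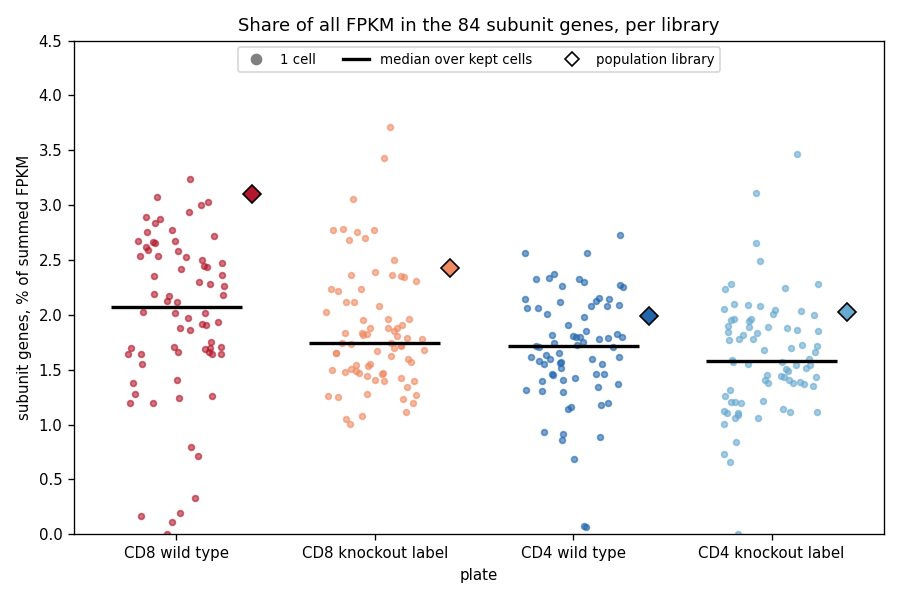
Share of each library's summed FPKM in the 84 subunit genes (vertical axis, %), by plate; small points are kept cells, bars their medians and diamonds the population libraries. Single cells overlap widely between plates, and the medians lie between 1.58% and 2.07%.

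Of the 84 genes, 75 were detected in at least 10% of the kept cells of at least 1 plate, 36 of complex I, all of complexes II and III, 11 of complex IV and 16 of complex V. Most of the other 9 are isoforms known from other tissues. Cox4i2, Cox7b2, Cox8b, Cox8c and Ndufa4l2 were listed at 0 in every kept cell and in the 4 population libraries. Cox6a2 and Cox7a1, known from heart and skeletal muscle, were detected in at most 1.39% and 1.28% of the cells of any plate, Cox6b2, known from testis, in at most 2.78% and Atp5s in at most 5.56%. Their ubiquitous partners Cox4i1, Cox6a1, Cox6b1, Cox7a2, Cox7b and Cox8a were detected in 33.8% to 94.8% of the cells of each plate.

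**Figure D2:**
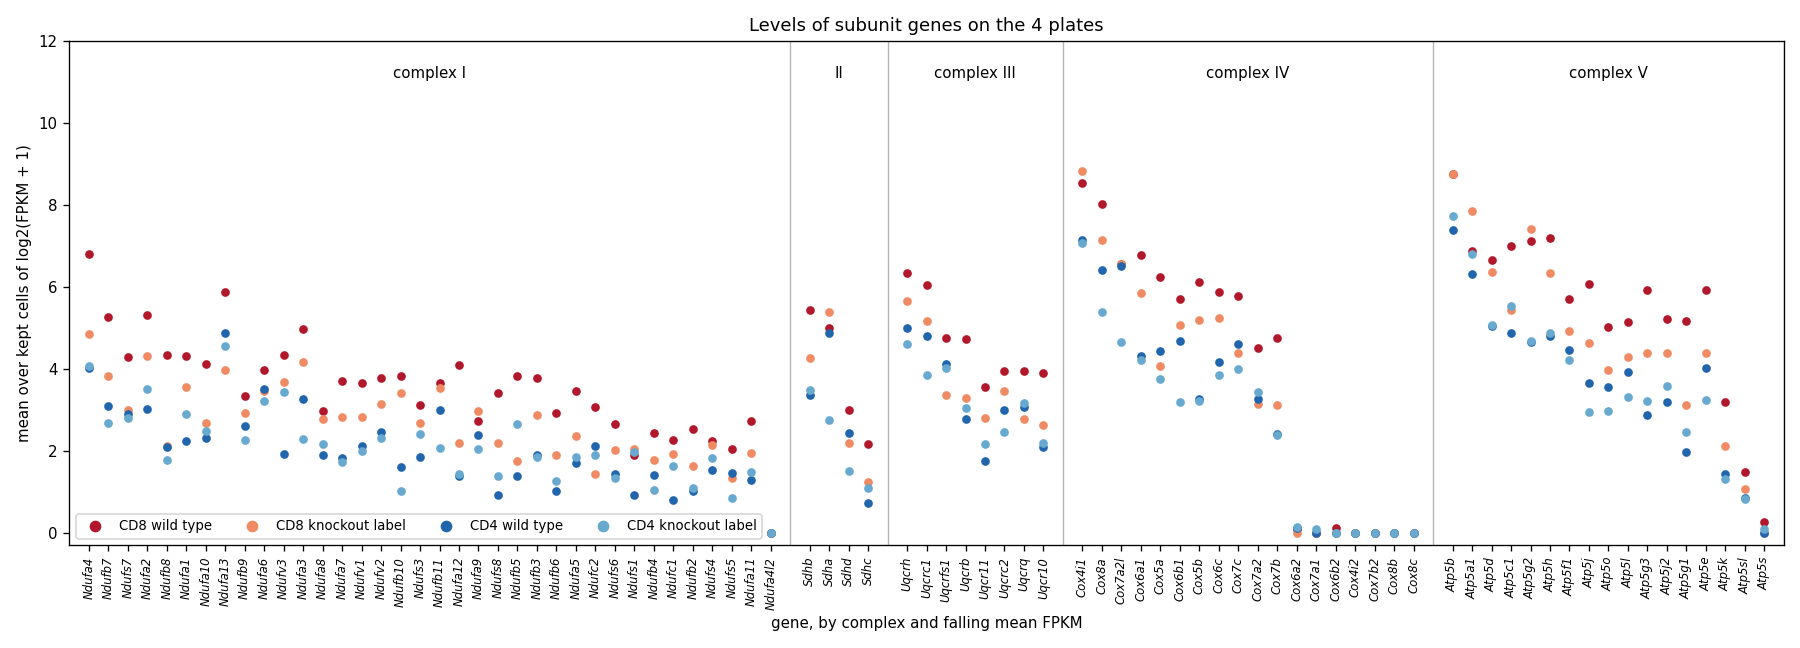
Mean over kept cells of log2(FPKM + 1) (vertical axis) for subunit genes (horizontal axis, by complex and falling mean FPKM), with 1 point per plate. The wild-type CD8 plate (dark red) often holds the highest point, and 5 genes are listed at 0 on all plates.

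Levels per length differed widely among the members. Atp5b, the catalytic beta subunit of ATP synthase, was the most abundant, with a mean of 1229 FPKM in wild-type CD8 cells, 1002 in CD8 cells labelled knockout, 801 in wild-type CD4 cells and 774 in CD4 cells labelled knockout. The share of cells with it was 90.3% (exact 95% interval 80.99 to 96.001), 93.5% (85.5 to 97.9), 77.03% (65.8 to 86.01) and 84.6% (74.7 to 91.8) in the same order. These intervals cover counting error only. Both CD8 plates thus lay above both CD4 plates in level and in share. Next came Cox4i1, a regulatory subunit around the catalytic core of cytochrome c oxidase, with mean levels of 1189, 867, 676 and 700.0 FPKM, and Cox8a, a small subunit of the same complex, with 892, 597, 546 and 411 FPKM. The order of the 75 detected members by mean FPKM was similar between plates, with Spearman correlations from 0.872 to 0.937 over 75 genes, and between cells and the population library of the same plate, from 0.849 to 0.895. These correlations are across genes, which share libraries and transcript lengths and are not replicates.

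Complex I, the NADH dehydrogenase, was the least often detected complex on every plate. The median share of cells over its 36 detected members was 47.2% on the wild-type CD8 plate, 33.8% on the CD8 plate labelled knockout, 24.3% on the wild-type CD4 plate and 25.6% on the CD4 plate labelled knockout. Its most abundant member by symbol was Ndufa4, at a mean of 316.9 FPKM over the plates, and its least abundant detected member was Ndufa11, at 26.5 FPKM.

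Complex II, succinate dehydrogenase, links the tricarboxylic acid cycle to the chain and has only 4 subunits. Sdhb, its iron-sulfur subunit, was the most abundant at a mean of 278.2 FPKM over the plates, and Sdhc, a membrane anchor, the least at 38.8 FPKM. Sdhc was detected in 33.3%, 15.6%, 9.46% and 15.4% of cells. Sdhd, the other anchor, was detected in 40.3%, 29.9%, 32.4% and 20.5%. The wild-type CD8 plate was highest for both anchors.

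Complex III, the cytochrome bc1 complex, was more even. Its most abundant member was Uqcrh, the hinge protein, at 417 FPKM, and its least abundant was Uqcr10 at 102.02 FPKM. Complexes IV and V were the most often detected. Over the 11 detected members of complex IV the median share was 69.4%, 62.3%, 54.1% and 47.4%, and its least abundant of these was Cox7b at 90.7 FPKM. Over the 16 detected members of complex V it was 72.2%, 59.7%, 50% and 46.8%. Complex V also had the widest range, from Atp5b at 952 FPKM over the plates down to Atp5sl at 20.5 FPKM. Over all genes that passed the same detection filter the median share was 25.0%, 20.8%, 17.6% and 16.7%.

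Within a plate, the number of members detected per cell followed the number of all genes detected. A median of 44.5, 32, 26.5 and 25 of the 84 genes was detected per cell on the 4 plates, and the Spearman correlation with all detected genes was 0.944, 0.821, 0.889 and 0.911 over 72, 77, 74 and 78 cells that share depth. The members' percentage of the FPKM followed detected genes less closely, at 0.712 on the wild-type CD8 plate and 0.298 to 0.371 on the others. In 7, 1, 4 and 3 cells of the plates fewer than 10 members were detected although the cells passed the filter. Near that filter, the shallowest kept cells had 1004 to 1080 detected genes and the deepest cells left out 706 to 941.

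**Figure D3:**
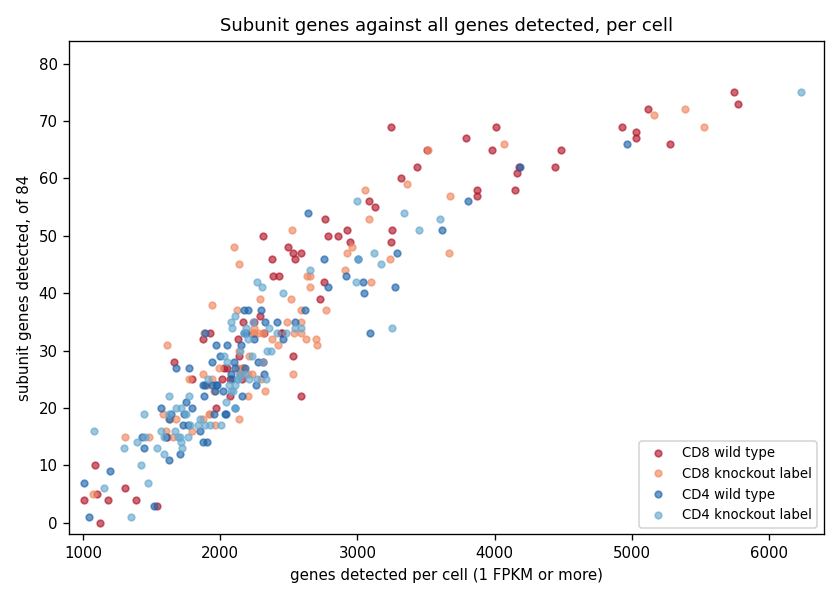
Number of the 84 subunit genes detected in each kept cell (vertical axis) against all genes detected in it (horizontal axis), coloured by plate. The points of the 4 plates lie along a common rising band, from 0 to 75 subunit genes.

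The first comparison set CD4 against CD8 cells, with 2 plates each. The titles also carry a plate code that follows the cell type, p3 on both CD8 plates and p1 and p4 on the CD4 plates, and cell type and this code cannot be told apart. The medians of all 5 complexes lay below 0, that is, lower on the CD4 plates: of the 75 members tested, 74 had a mean log2(FPKM + 1) below that of CD8 cells, with a median difference of -1.14, while over all 8427 genes tested 77.1% lay below 0 and the median was -0.27. In 61 of the 75, both CD4 plates were below both CD8 plates, a pattern found in 42.5% of all genes. By limma's moderated test on the 4 plate means, blocked by source and adjusted over all genes (Benjamini-Hochberg), 20 members fell and 0 rose, against 6.32% of all genes called lower and 1.12% called higher. Without the block on the source 2 members fell, against 0.593% of all genes called lower. At an unadjusted p under 0.05, 51 of the 75 were lower, against 19.8% of all genes. Of complex I 9 of 36 fell, of complex IV 5 of 11 and of complex V 6 of 16. None of the 4 of complex II or the 8 of complex III passed, although 3 and 6 of them had both CD4 plates below both CD8 plates. With 1 residual degree of freedom, the spread comes from all genes together, along a trend with level. The p-values thus set each difference against the typical spread of genes of like level between these 4 plates. A gene's own spread between plates has little part in them, and they do not measure the spread between mice.

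The 3 genes of the c subunit, which forms the rotating ring of ATP synthase, all fell. Atp5g2 had means of 7.12 and 7.40 in the CD8 plates, wild type first, and 4.66 and 4.67 in the CD4 plates. The 2 cell types did not overlap, and the plates of each type lay within 0.28 of each other. Its difference was -2.595 (SE 0.58, limma adjusted p = 0.00081). Atp5g3 had 5.92 and 4.40 in CD8 and 2.87 and 3.20 in CD4, a difference of -2.12 (SE 0.54, limma adjusted p = 0.0052). Atp5g1 had 5.16 and 3.12 in CD8 and 1.96 and 2.46 in CD4, a difference of -1.93 (SE 0.50, limma adjusted p = 0.0052). The 3 genes encode the same mature protein with different import sequences. Also of complex V, Atp5h and Atp5j, which encode peripheral stalk subunits, fell by 1.92 and 2.05 on the log2 scale (limma adjusted p = 0.022 and 0.0087), and the small subunit gene Atp5k fell by 1.29 (0.031). Atp5k has 4 named pseudogenes, which can share its reads, and its value is uncertain for that reason. Atp5b itself, at 8.74 and 8.76 against 7.38 and 7.71, differed by -1.20 (SE 0.52, limma adjusted p = 0.13) and did not pass.

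In complex IV, Cox5b, a zinc-binding subunit, had means of 6.12 and 5.20 in CD8 and 3.27 and 3.23 in CD4. All 4 plates kept the 2 cell types apart, and the difference was -2.41 (SE 0.56, limma adjusted p = 0.0014). Cox5b has 1 named pseudogene. Cox6a1 fell by 2.04 (limma adjusted p = 0.013), Cox8a by 1.68 (0.045), Cox4i1 by 1.58 (0.044) and Cox7b by 1.54 (0.033). These are all nuclear subunits arranged around the mitochondrially encoded catalytic core. Cox7a2l, the assembly factor of supercomplexes, had 6.55 and 6.56 in CD8, 6.51 in wild-type CD4 and 4.66 in CD4 labelled knockout. Its wild-type CD4 plate lay beside the CD8 plates, and the difference of -0.96 did not pass (limma adjusted p = 0.32).

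In complex I the lowest adjusted p of any member was that of Ndufb10, a subunit of the membrane arm. Its means were 3.82 and 3.41 in CD8 and 1.62 and 1.02 in CD4. It was detected in 47.2% (exact 95% interval 35.3 to 59.3) and 41.6% (30.4 to 53.4) of CD8 cells. The CD4 shares were 20.3% (11.81 to 31.2) and 11.5% (5.41 to 20.8). The 2 cell types were apart on both scales, and the difference was -2.30 (SE 0.45, limma adjusted p = 4.85e-05). The core subunit gene Ndufs8, which carries iron-sulfur clusters, fell by 1.64 (limma adjusted p = 0.0035). The other 7 that fell were the accessory subunit genes Ndufa3, Ndufa4, Ndufa7, Ndufa12, Ndufb3, Ndufb6 and Ndufb7, with differences from -1.80 for Ndufa3 to -1.28 for Ndufb6. Ndufa12 is 1 of 8 members with a named pseudogene. Of further core subunits, Ndufs1 differed by -0.52 and Ndufv1, which binds the flavin, by -1.18, and neither passed.

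Members outside this pattern were few. Uqcrfs1, the Rieske iron-sulfur protein of complex III, had 4.74 and 3.36 in CD8 and 4.12 and 4.01 in CD4. Its CD4 plates lay between the CD8 plates, and it was the member with a difference above 0, at 0.02 (limma adjusted p = 0.99). Ndufa13 (-0.21), Uqcrq (-0.24) and Ndufc2 (-0.25) came next.

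The population libraries gave the same side for most members. Of 79 members at 1 FPKM or more in at least 2 of the 4 libraries, 77 were lower in CD4, with a median of -0.79 against -0.10 over all 11008 genes. In 64 of the 79 both CD4 libraries lay below both CD8 libraries, a pattern found in 26.2% of all genes. Limma called 0 members at an adjusted p under 0.05, where 0.0182% of all genes were called lower and 0.0182% higher. In simulated population libraries the same fit recovered 12% of changes of 1 log2. The simulation used normal spread along the fitted trend and changed genes drawn from all those tested, so this is not a rate for the members. At an unadjusted p under 0.05 it counted 37 of the 79 as lower, against 9.71% of all genes. Atp5g3 is an example, at 904 and 402 FPKM in CD8 and 296.6 and 286.7 FPKM in CD4. Its 2 cell types did not overlap, and the log2 difference was -1.04 (limma adjusted p = 0.24).

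**Figure D4:**
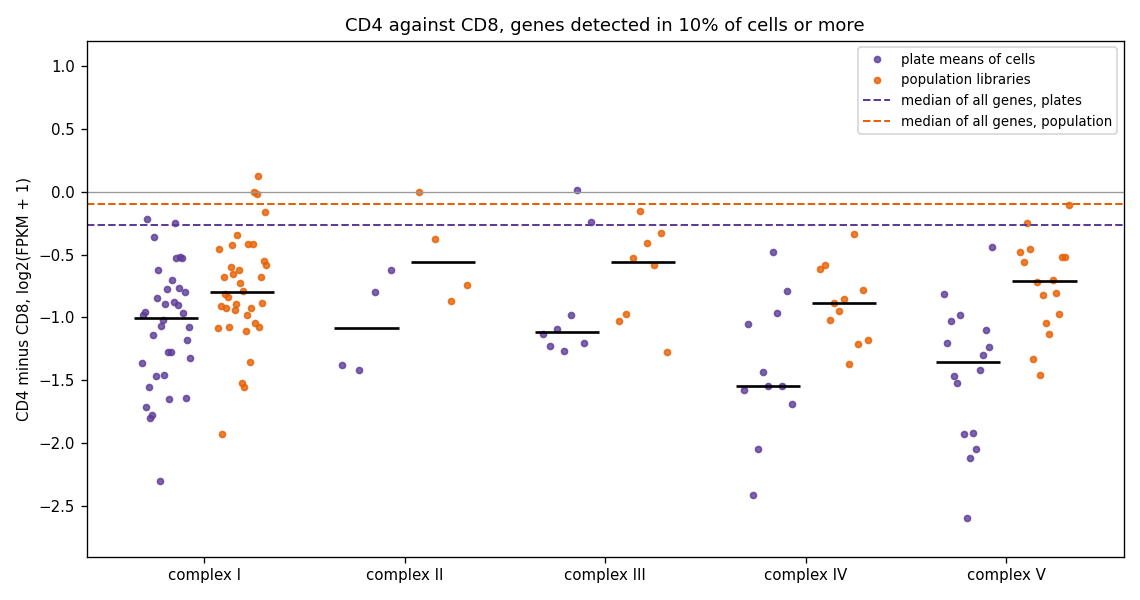
CD4 minus CD8 difference of log2(FPKM + 1) (vertical axis) for members detected in at least 10% of cells, by complex, from plate means of cells and from population libraries; short bars are medians over genes and dashed lines the medians of all genes. Nearly all points lie below 0, and the medians of complexes IV and V in cells are -1.54 and -1.36.

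Depth and cycling cells moved with this difference, and the share of it that they account for was not tested. In cells matched one to one between CD4 and CD8 of the same source on detected genes, within 5% (48 and 58 pairs), 61 of 75 members lay below 0, against 52.9% of all genes, with a median of -0.42 against -0.03. There limma called 1.503% of all genes lower, and 4 members fell: Atp5g2 (-2.06, adjusted p = 0.0049), Ndufb10 (-1.51, 0.029), Atp5j (-1.68, 0.047) and Atp5g1 (-1.57, 0.048). Without cycling cells 69 of 75 lay below 0, against 64.1% of all genes, with a median of -0.67 against -0.12, and 5 fell, against 1.81% of all genes. With log2 of the arithmetic mean FPKM the median was -0.50, and 70 lay below 0, against 58.1% of all genes. There 0 passed, and limma called 1.07% of all genes lower. With a pseudocount of 10 the median was -0.70, 0 passed, and 0.142% of all genes were called lower. With cells of at least 2000 genes 0 passed as well, while 73 of 75 lay below 0 with a median of -1.02, and limma called 0.0996% of all genes lower. Cells were called doubtful with 2 or more melanoma, myeloid, B cell or stroma markers, or with both Cd4 and Cd8a. Tyr alone counted as 1 such marker in nearly every cell. Leaving doubtful cells out kept 32 and 40 CD8 cells and 37 and 44 CD4 cells, wild type first. Without doubtful cells 0 passed, 74 lay below 0 with a median of -1.05, and 0.131% of all genes were called lower. The medians of all genes were -0.22 and -0.23 in these settings, and the members' medians lay near the -1.14 of all kept cells. Where Tyr was not counted among those markers, 16 passed, and 3.03% of all genes were called lower. The wild-type source gave 75 of 75 below 0 with a median of -1.51, against 75.8% of all genes and -0.34. The source labelled knockout gave 68 of 75 with a median of -0.74, against 66.6% and -0.18. The difference between the sources was not tested.

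Promoters of the members were searched for letters of 3 motifs long linked to respiratory chain genes: NRF1 (GCGCA and GCGC parted by 1 base of any kind), ETS, the family of the GABP factor (CCGGAAG), and YY1 (AANATGGCG), each on both strands, in windows from 250 bases before to 50 bases after the start site from RefSeq (GRCm38.p6). The NRF1 letters can match both strands at once, a gene with several matches was counted once, and no motif holds the letters of another. Of the 84 members, 69 had a window. NRF1 letters were found for 17 of the 69 (24.6%), against 12.95% of 6332 genes that passed the detection filter and 5.19% of all 27025 genes with such a window. YY1 letters were found for 11 (15.9%), against 7.34% and 2.76%. ETS letters were found for 16 (23.2%), against 23.9% and 9.93%. Over the 64 members with a window that passed the detection filter themselves, the shares were 26.6% for NRF1, 17.2% for YY1 and 25% for ETS, and 59.4% held any of the 3. Any of the 3 was found for 38 members (55.1%), against 38.4% and 15.9%. By complex the share with any of the 3 ran from 3 of 13 in complex IV to 12 of 16 in complex V and 3 of 3 in complex II.

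The windows of the 4 members that limma still called lower in CD4 cells after matching on detected genes are shown, with that of Sdha, a gene that differed widely between the CD4 plates. Each match is printed 5′ to 3′ on the gene's strand with at most 30 bases, and capitals mark the motif letters. The single NRF1 match of Atp5g2 is at chr15:102671070-102671099 (minus strand), starts 42 bases before the start site and lies in an exon of Atp5g2 in the GENCODE annotation. Atp5j has an ETS match at chr16:84835020-84835048 and a YY1 match at chr16:84835046-84835074 (minus strand), within an annotated Atp5j exon, while its other window holds no match. Sdha has NRF1 matches at chr13:74350319-74350348, chr13:74350276-74350305 and chr13:74350231-74350260 (minus strand), of which the first lies in an exon of Ccdc127 and the last in an exon of Sdha.
Atp5g2 NRF1: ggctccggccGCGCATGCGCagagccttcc
Atp5j ETS: agctgagggacCCGGAAGcacttaccctc
Atp5j YY1: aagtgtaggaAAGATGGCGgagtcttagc
Sdha NRF1 at 98 bases before the start: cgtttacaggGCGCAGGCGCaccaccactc
Sdha NRF1 at 55 bases before the start: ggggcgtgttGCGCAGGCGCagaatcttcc
Sdha NRF1 at 10 bases before the start: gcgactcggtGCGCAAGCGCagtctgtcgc

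The windows of Atp5g1 and Ndufb10 hold none of the 3 motifs. They are shown, in their stretch without annotated exons, because limma called both genes lower in CD4 cells after matching as well, and they hold no capitals. The stretches are chr11:96075671-96075881 for Atp5g1 and chr17:24724479-24724673 for Ndufb10, both on the minus strand.
Atp5g1: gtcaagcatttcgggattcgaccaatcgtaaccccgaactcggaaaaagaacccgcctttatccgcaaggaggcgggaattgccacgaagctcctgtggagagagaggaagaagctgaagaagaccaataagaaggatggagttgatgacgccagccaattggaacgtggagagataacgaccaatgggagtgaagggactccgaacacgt
Ndufb10: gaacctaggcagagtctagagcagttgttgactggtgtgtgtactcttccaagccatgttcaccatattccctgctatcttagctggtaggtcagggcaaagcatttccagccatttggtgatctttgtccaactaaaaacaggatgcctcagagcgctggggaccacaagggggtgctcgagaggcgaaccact

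The second comparison set the CD8 plate labelled knockout against the wild-type CD8 plate. With 1 plate per label there is no replicate check and no test, and a difference of 1 on the log2(FPKM + 1) scale was used to describe size. Of the 75 members tested, 67 were lower on the plate labelled knockout, with a median of -0.86 against -0.22 over all 8117 genes, of which 67.98% were lower. By this measure 29 members were lower by 1 or more, against 9.19% of all genes, and 0 were higher by 1 or more, against 2.07%. The 29 were 13 of 36 in complex I, 1 of 4 in complex II, 4 of 8 in complex III, 4 of 11 in complex IV and 7 of 16 in complex V.

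Ndufb8, an accessory subunit of the membrane arm of complex I, had the widest difference, with 4.33 in wild type and 2.11 on the plate labelled knockout (-2.22). It was detected in 48.6% (exact 95% interval 36.7 to 60.7) and 24.7% (15.6 to 35.8) of cells, and its population level was 809.8 and 382.7 FPKM. Cox5a, a matrix-side subunit of complex IV, had 6.23 and 4.06 (-2.17), with shares of 68.1% (56.01 to 78.6) and 46.8% (35.3 to 58.5). Ndufb5, another membrane arm subunit, had 3.84 and 1.76 (-2.08), and Atp5g1 5.16 and 3.12 (-2.05). In each of these 4 genes the plate labelled knockout was the lower in cells, and the population value was also lower, by 0.04 for Ndufb5 to 1.08 for Ndufb8.

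Several abundant members lay on the other side. Atp5a1, the alpha subunit beside Atp5b in the catalytic head of ATP synthase, had 6.87 in wild type and 7.84 on the plate labelled knockout, a difference of 0.97. Sdha (0.41) and Cox4i1 (0.29) followed, and Atp5b was level at 8.74 and 8.76. Atp5a1 was detected in 76.4% and 88.3% of the cells, Sdha in 59.7% and 64.9%, and Cox4i1 in 86.1% and 94.8%. In arithmetic mean FPKM, Cox4i1 went the other way, from 1189 to 867 FPKM.

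In the CD8 population libraries the members lay on the same side, with a smaller median. There 68 of 78 members were lower in the library labelled knockout, with a median of -0.49, against 47.5% of all genes and a median of 0.05, and 6 were lower by 1 or more, against 14.9% of all genes, and 0 higher, against 18.6%. The median of each complex lay between -0.60 for complex II and -0.46 for complex I. Depth and cycling differed between the 2 plates. In 53 pairs of cells matched on detected genes, the median was -0.30 with 50 of 75 members below 0, against -0.01 and 51.1% of all genes. There 14 were lower by 1 or more and 2 higher, against 4.82% and 4.38% of all genes. Without cycling cells the median was -0.34 with 51 below 0, against -0.03 and 52.5%, and again 14 were lower and 2 higher, against 3.75% and 4.15%. Ndufb7 turned from -1.44 to 0.28 in the matched cells and to 0.13 without cycling cells. Cox5a (-1.96), Atp5g1 (-1.80), Ndufb5 (-1.65) and Ndufb8 (-1.09) were lower by over 1 in the matched cells as well. The matched cells are part of the cells in which these genes were picked, so this is no independent check.

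The third comparison set the 2 CD4 plates side by side, and there the members were balanced. Of 75, 42 were lower on the plate labelled knockout, with a median of -0.07 against -0.04 over all 7063 genes. In this comparison 4 were lower by 1 or more, against 2.51% of all genes, and 3 were higher, against 2.53%. The 4 were Sdha and the complex IV genes Cox7a2l, Cox6b1 and Cox8a. The 3 higher ones were the complex I genes Ndufv3, Ndufb5 and Ndufs1. Complex I holds 36 of the 75 members and complex IV 11, and a difference between complexes was not tested.

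Sdha, the flavoprotein that oxidises succinate, had 4.88 in wild type and 2.75 on the plate labelled knockout (-2.13). It was detected in 58.1% (exact 95% interval 46.1 to 69.5) of wild-type CD4 cells and 37.2% (26.5 to 48.9) of those labelled knockout, at mean levels of 336.2 and 114.8 FPKM. The CD4 plate labelled knockout thus lay below the other 3, which had 4.98, 5.39 and 4.88. The population libraries did not show this, with 480.0 FPKM in wild-type CD4 and 429 FPKM in the one labelled knockout, beside 458 and 452 FPKM in CD8. The other subunits of complex II differed by 0.11 (Sdhb), 0.38 (Sdhc) and -0.92 (Sdhd).

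Cox7a2l had 6.51 and 4.66 (-1.85), Cox6b1, a subunit on the cytochrome c side of complex IV, 4.68 and 3.20 (-1.49), and Cox8a 6.41 and 5.37 (-1.04). In the population libraries all 3 were instead higher in the one labelled knockout, by 0.29, 0.15 and 0.28. On the other side, Ndufv3, an accessory subunit beside the flavoprotein of complex I, had 1.93 and 3.43 (1.499), with shares of 24.3% (15.1 to 35.7) and 41.03% (30.01 to 52.7). Ndufb5 had 1.39 and 2.65 (1.26), and Ndufs1, the largest core subunit, 0.93 and 1.97 (1.04). Their population differences were 0.02, 0.41 and 0.64. All 7 kept their sign in each of 13 alternative settings, with Sdha between -2.83 and -1.14. These settings reuse cells of the same 2 plates, in which the 7 were picked for their size, so they are no independent check. Over all members the CD4 population libraries had a median of 0.23, with 31 of 77 lower, 1 lower by 1 or more, against 20.8% of all genes, and 9 higher, against 22.6%.

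**Figure D5:**
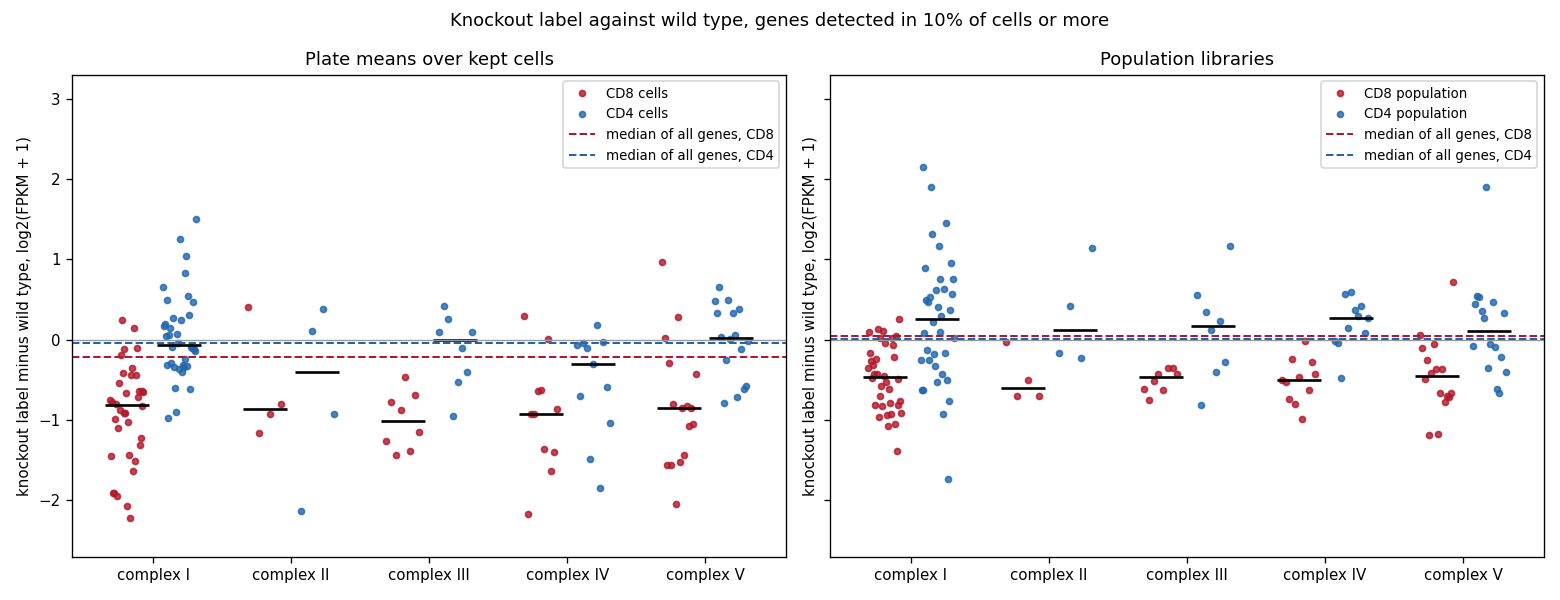
Difference between the label knockout and wild type in log2(FPKM + 1) (vertical axis) for each member by complex, in plate means of cells (left) and population libraries (right), CD8 in red and CD4 in blue; short bars are medians over genes and dashed lines medians of all genes. CD8 points lie mostly below 0 in both panels, and CD4 points lie on both sides.

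Cells of a plate were also divided by features other than the subunits. In wild-type CD8 cells the members made up a median of 2.52% of the FPKM in the 24 cycling cells and 1.81% in the other 48, with medians of 3929 and 2310.5 detected genes. On the CD8 plate labelled knockout the 8 cycling cells had 2.53% and the other 69 had 1.74%. Cycling cells were thus higher on both CD8 plates, and also deeper, at 3870.5 against 2215 detected genes on the latter. The CD4 plates held few of them. In wild type 4 cycling cells had 2.18% against 1.68%, with 2530 against 2047 detected genes, and under the knockout label 6 had 1.62% against 1.56%, with 2034 against 2091. In CD4 cells, Foxp3, the factor of regulatory T cells, was detected in 27 wild-type cells and 37 cells labelled knockout. The members' share was 1.73% with Foxp3 and 1.70% without it in wild type, and 1.57% and 1.59% in cells labelled knockout. The order with and without Foxp3 was not the same on both plates, and the differences were not tested.

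Genes around the pathway are set beside the 6.32% of all genes called lower and the median of -0.27 over all genes. Of 46 assembly factors matched, 35 were tested between CD4 and CD8 and 2 fell: Cox17, which carries copper to complex IV, by 2.18 (limma adjusted p = 0.00058), and AI462493, an older symbol of the complex III assembly factor Uqcc3, by 1.26 (0.017). The median of the assembly factors was -0.41, and 2 of 35 is a share near that of all genes. Of 17 tricarboxylic acid cycle and pyruvate dehydrogenase genes all lay below 0, with a median of -0.79, and 2 fell, among them Pdhb, a subunit of pyruvate dehydrogenase, by 1.89 (limma adjusted p = 0.0044). Of 12 regulators tested, Myc fell by 1.17 (limma adjusted p = 0.031), the median was -0.17, and Ppargc1a, the coactivator PGC-1alpha, was detected in at most 1.35% of the cells of any plate. Of 15 glycolysis genes 0 passed in either direction, and the median was -0.29. At an unadjusted p under 0.05, 2 of the 15 were lower, against 19.8% of all genes. Of 6 further subunits outside the symbol rule, among them the cytochrome genes Cyc1 and Cycs, 0 passed, and the median was -0.85. At an unadjusted p under 0.05, 3 of the 6 were lower, against the same 19.8% of all genes. Mitochondrially encoded subunits were not analysed here, because none of their 13 symbols was matched.

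Between the CD8 plates, there was no test, the median of all genes was -0.22, and 9.19% of all genes were lower by 1 or more. The list median was -0.76 for the tricarboxylic acid cycle genes, of which 7 of 17 were lower by 1 or more, -0.75 for the glycolysis genes, of which 5 of 15 were, and -0.53 for the assembly factors, of which 5 of 35 were. It was -0.84 for the 6 further subunits, of which 3 were. For the regulators it was -0.09, above the median of all genes, and 1 of 12 was lower by 1 or more, a share near that of all genes. The subunits' median of -0.86 was thus near that of both metabolic lists. In the CD8 population libraries the glycolysis median was -0.75, below the -0.49 of the subunits, while that of the tricarboxylic acid cycle genes was -0.09 and that of the regulators 0.42. Between the CD4 plates the medians were 0.01 for the tricarboxylic acid cycle genes, -0.11 for glycolysis, 0.07 for the assembly factors, -0.04 for the further subunits and 0.07 for the regulators, against -0.04 over all genes.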

How the data were processed

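Smart-seq2 libraries of single T cells, 4 population wells and 4 wells without a cell were analysed. The authors deposited FPKM with TMM normalization, per the file headers. The submitters' processing notes name Bowtie, RSEM and mm10, with no versions stated. RSEM assigns reads of similar genes by an estimate. Read totals are unknown, so depth is given as detected genes, and a plate mean of log2(FPKM + 1) carries both level and share of cells. Groups follow the titles, and WT4 and KO4 were read as 1 source each. The labels do not say how many animals a source holds, so p-values rest only on the spread between these plates, shared over genes of like level.

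Members and lists were chosen with earlier results of these data known. CD4 and CD8 were compared with limma 3.58.1 (R 4.3.3; lmFit, eBayes with trend, Benjamini-Hochberg) on 4 plate means, with the source as a replicate block because each gave 1 plate of each cell type, over genes detected in at least 10% of the cells of a plate. The fit was tested on simulated data with normal spread. On plates it recovered 52% of changes of 1 log2 and 88% of changes of 2 log2. In population libraries it recovered 12% and 40%. Genotype was not tested. Other steps used Python 3.11.15. Named in full were the most and least abundant members of each complex, the Sdh and c subunit genes, tissue isoforms, members called, the 3 widest per direction in each knockout comparison, and at most 4 genes per other list. Uqcrfs1 and the members named with it, the promoters shown and the regulator Ppargc1a were chosen after their values were seen. In the lists, 7 older symbols were matched. Some genes are counted but not reported here by name. Alternatives changed the pseudocount, the filters, the cells and the scaling.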

Additional observations from a re-analysis of the deposited data

Results flagged for a closer look

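Ndufb5, an accessory subunit of the membrane arm of complex I, lay on opposite sides in CD8 and CD4 cells between the plates labelled knockout and wild type. It was lower by 1 log2 or more on the CD8 plate labelled knockout (-2.08) and higher by 1 or more on the CD4 plate labelled knockout (1.26). The difference between the cell types was not tested, since each rests on 1 plate per label. Of 6753 genes tested in both, 24 (0.355%) lay apart in this way, and Ndufb5 was the 1 of 75 members that did. In the population libraries its differences were -0.04 and 0.41.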

How the results depend on the processing

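Relative to all genes, the median of the members stayed below 0 under each alternative run for CD4 against CD8 and for the CD8 plates, and lay on both sides of 0 between the CD4 plates. Counts depended on the setting. Settings that match CD4 with CD8 cells on detected genes, drop cycling cells, need 1500 genes, leave Tyr out of the other-type markers, need 100 FPKM of Actb or, for CD4 against CD8, need detection in 25% of cells were chosen after seeing the data, as was the limit of 1.5 times for a median that moved.
Between CD4 and CD8 plates, 20 members were called lower and 7.44% of all genes were called. With a pseudocount of 10 these were 0 and 0.225%, with a 25% detection filter 6 and 3.44%, and with arithmetic means 0 and 1.98%. With 2000 genes per cell they were 0 and 0.122%, and without doubtful cells 0 and 0.167%. With 1500 genes per cell they were 9 and 4.46%, in matched cells 4 and 3.44%, without cycling cells 5 and 3.09%, and without the source as a replicate block 2 and 0.831%. Without a filter on low values 3.74% of genes were called, and 3.73% with Tyr left out of the markers. The members' median minus that of all genes, -0.87, was -0.58 with a pseudocount of 10, -0.38 with arithmetic means, -0.40 in matched cells and -0.56 without cycling cells. It was -0.80 with 2000 genes per cell and -0.83 without doubtful cells, where the calls were lost. Leaving out 1 source gave -1.17 without KO4 and -0.56 without WT4.
In population libraries 0 members and 0.0363% of genes were called. Without a filter on low values these were 14 and 4.46%, a pseudocount of 10 gave 0.536% of genes and no replicate block gave 0.0182%. The median minus that of all genes, -0.69, ran from -0.98 to -0.31 leaving out 1 source.
Between CD8 plates 29 of 75 members were lower and 0 higher by 1 log2, against 9.19% and 2.07% of all genes. With a pseudocount of 0.1 these were 47 and 1, against 20.1% and 4.30% of all genes. In matched cells they were 14 and 2, against 4.82% and 4.38%. Without cycling cells they were 14 and 2, against 3.75% and 4.15%. The lower count was 11 with a pseudocount of 10, against 1.69% of all genes, and 51 with 1500 genes per cell, against 14.9%. With arithmetic means it was 3 of 75, against 12.04% of all genes, so there the members' share was the smaller. The higher count was 1 without doubtful cells, against 3.72% of all genes, and 1 with FPKM rescaled to the same total, against 3.06%. The median minus that of all genes, -0.64, was -0.33 with arithmetic means, -0.29 in matched cells and -0.31 without cycling cells. Ndufb7 changed sign, to 0.28 in matched cells and 0.13 without cycling cells.
Between CD4 plates 4 were lower and 3 higher, against 2.51% and 2.53% of all genes. The lower count was 10 with a pseudocount of 0.1 (8.41% of all genes) and 2 with 10 (0.326%). It was 9 without other-type markers (4.74%) and 8 with the Actb limit (3.55%). With arithmetic means it was 1 of 75, and there the members' share was below that of all genes. The higher count was 0 with a pseudocount of 10 (0.665% of all genes), 6 in matched cells (4.27%) and 10 without doubtful cells (7.27%). The median minus that of all genes, -0.03, was -0.15 with 2000 genes per cell. The cause of these changes was not tested.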
